A study of Mus musculus with 24 samples.

Results

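The H3K4me1 peaks of mouse macrophages that carried a hairpin against Wdr82 were compared with those of control macrophages, by their position relative to H3K4me3 peaks. All 4 H3K4me1 libraries of the series were used, out of 24 ChIP-seq libraries. Their peak lists held 248851 of the 756484 deposited peaks. The cells were bone marrow-derived macrophages of FVB/Hsd mice on day 7 of differentiation. Each culture was infected with a retrovirus and selected with puromycin. One vector carried the Wdr82 hairpin sh1137 (shWdr82 below) and the control vector carried a scrambled hairpin. Cells of each vector were left untreated or received lipopolysaccharide (LPS, a bacterial cell wall product that activates macrophages) at 10 ng/ml. The library titles give 45 min of LPS for H3K4me1, whereas the treatment text speaks of 4 h alone. Every group was 1 library from cells with a single hairpin, so no difference below has a replicate check, a test or a p-value. The intervals in parentheses are 95% intervals that cover counting error only. The level of Wdr82 itself was not measured in these files.

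H3K4me1, a single methyl group on lysine 4 of histone H3, marks enhancers and the flanks of promoters. H3K4me3, the trimethylated form, marks the promoters of active and poised genes, where H3K4me1 is usually sparse at the centre and dense on either side. WDR82 is a subunit of the SET1A and SET1B methyltransferase complexes, which deposit much of the H3K4me3 at promoters, while the MLL3 and MLL4 enzymes place much of the H3K4me1 at enhancers.

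Positions were taken from the 18951 H3K4me3 peaks of untreated cells with the empty vector LMP, which is a different control vector from the scrambled one. A peak was called present in another list when at least 1 bp overlapped. An H3K4me1 peak was classed as on an H3K4me3 peak, beside it (1 to 2500 bp away), near it (over 2500 and up to 10000 bp) or far from it (over 10000 bp). The scrambled lists held 61252 peaks untreated and 65149 after LPS, and the shWdr82 lists held 60602 and 61848. They covered 149 and 153 Mb in scrambled cells and 142 and 150 Mb in shWdr82 cells. In all 4 lists most H3K4me1 peaks lay away from H3K4me3. More than 2500 bp from any H3K4me3 peak were 68.3% and 68.1% of the scrambled peaks and 72.3% and 71.6% of the shWdr82 peaks, untreated and after LPS. The peak caller's score, which ranks peaks within a list, reached 1000 in 8.23% and 8.94% of the scrambled peaks and in 4.77% and 6.17% of the shWdr82 peaks. Fewer marked cells, less mark per cell, and lower depth or enrichment of a library cannot be told apart in such lists.

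The number of H3K4me1 peaks was lower in shWdr82 cells where they touched H3K4me3 and not lower far away. In untreated cells, 16027 scrambled and 13395 shWdr82 peaks lay on an H3K4me3 peak, a difference of -16.4%. Far from H3K4me3 the order was the reverse, with 32810 scrambled and 34812 shWdr82 peaks. After LPS, 16735 scrambled and 14081 shWdr82 peaks lay on H3K4me3, a difference of -15.9%, and 34681 and 35235 lay far from it. Between these classes the 2 treatments were not alike. In untreated cells the peaks beside H3K4me3 numbered 3412 in scrambled and 3391 in shWdr82 cells, but after LPS they numbered 4048 and 3458.

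Measured as DNA under a peak, the deficit was greatest beside the H3K4me3 peaks and not on them. In untreated cells, H3K4me1 peaks covered 26.4 Mb of the 2500 bp flanks in scrambled and 20.9 Mb in shWdr82 cells, or -20.9%. Inside the H3K4me3 peaks they covered 14.9 and 14.3 Mb, or -4.28%. From there to 10000 bp away they covered 27.5 and 25.4 Mb, or -7.55%, and over 10000 bp away they covered 80.3 and 81.0 Mb, or 0.890% more. After LPS the differences in the same order of distance were -3.96% inside, -17.5% in the flanks, -4.30% from there to 10000 bp and 3.93% over 10000 bp away. In steps of 250 bp outward from the H3K4me3 border, the gap was widest from 250 to 500 bp. There 48.7% of bases lay under a scrambled peak and 38.3% under a shWdr82 peak in untreated cells, and 50.4% and 41.4% after LPS. The gap had narrowed to -2.83 points untreated and -2.39 points after LPS at 2500 to 2750 bp.

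Of all scrambled H3K4me1 peaks, 19.7% in untreated cells and 18.8% after LPS had no overlapping shWdr82 peak. In untreated cells this share was 22.9% (22.2 to 23.5) for peaks on H3K4me3, 27.5% beside it, 19.2% near it and 17.5% far from it. On minus far, the difference was 5.40 points (4.64 to 6.18), and beside minus far it was 9.99 points (8.46 to 11.6). The peaks beside H3K4me3 exceeded those on it by 4.58 points (2.97 to 6.23). After LPS the shares were 21.5% on, 26.0% beside, 18.7% near and 16.7% far, so on minus far was 4.81 points (4.07 to 5.55) and beside minus on was 4.47 points (3.00 to 5.98). The highest share of any distance bin was that of scrambled peaks 1 to 500 bp from an H3K4me3 peak. Of 825 such peaks in untreated cells, 36.7% (33.4 to 40.1) had no shWdr82 counterpart, and of 1041 after LPS, 30.6% (27.9 to 33.5).

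The shWdr82 peaks without a scrambled counterpart had the opposite gradient. They made up 16.8% of the shWdr82 list in untreated cells and 15.9% after LPS. On H3K4me3 their share was 9.69% (9.19 to 10.2) untreated and 8.35% (7.90 to 8.82) after LPS. Beside it they were 12.3% and 12.6%, near it 15.4% and 15.0%, and far from it 20.4% and 19.4%. On minus far was -10.7 points (-11.4 to -10.1) untreated and -11.1 points (-11.7 to -10.5) after LPS. More than 100000 bp from any H3K4me3 peak the share was 23.8% untreated and 22.7% after LPS, the highest of all distance bins in both treatments.

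**Figure D1:**
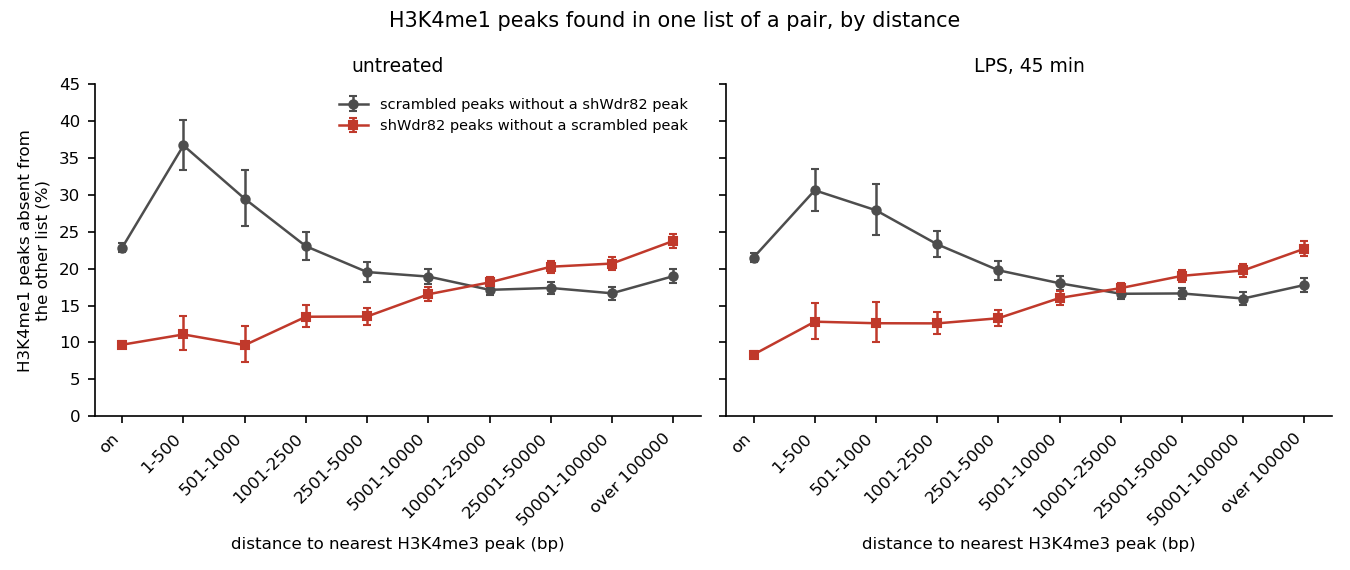
Share of H3K4me1 peaks of one vector that no peak of the other vector overlapped (vertical axis, percent), by distance to the nearest H3K4me3 peak (horizontal axis, bp), untreated and after LPS. Points are single libraries and bars are 95% binomial intervals. The scrambled curve peaks at 1 to 500 bp, with 36.7% and 30.6%, and the shWdr82 curve runs from 9.69% and 8.35% on H3K4me3 to 23.8% and 22.7% over 100000 bp away.

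Peaks found in 1 vector alone were mostly low-scoring, so each list was split into 4 score groups of equal size and the classes were compared within them. In untreated cells, scrambled peaks without a counterpart made up 53.7% of the lowest-scoring group on H3K4me3 and 43.6% far from it. The corresponding shares were 28.8% and 19.3% in the next group, 9.95% and 4.61% in the third, and 2.45% and 1.06% in the highest. After LPS they were 53.1% and 41.6%, 26.3% and 17.7%, 9.18% and 4.05%, and 2.95% and 1.64%. Within each of the 4 groups and both treatments, the share was thus higher on H3K4me3 than far from it. For shWdr82 peaks the order was the reverse in the 3 lower groups: in the lowest, 24.2% on and 48.5% far in untreated cells, and 22.7% and 47.8% after LPS. In the highest group of the shWdr82 lists it was not, with 1.66% on and 1.22% far untreated and 0.987% and 0.573% after LPS.

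**Figure D2:**
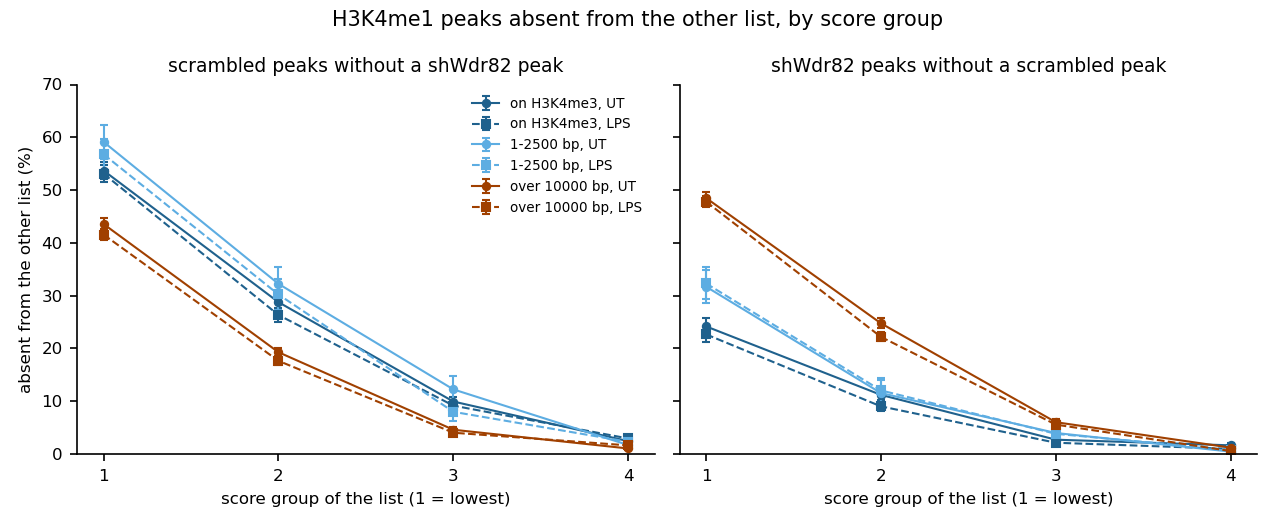
Share of H3K4me1 peaks with no peak in the other vector's list (vertical axis, percent), by score group of the list (horizontal axis, 1 lowest), for peaks on, beside and far from H3K4me3. Bars are 95% binomial intervals, solid lines are untreated and dashed lines LPS. Scrambled peaks on H3K4me3 lie above those far from it in each group (53.7% against 43.6% in the lowest, untreated).

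Taken from the side of the H3K4me3 peaks, fewer carried H3K4me1 in shWdr82 cells, both on the peak and beside it. In untreated cells, 72.4% of the 18951 H3K4me3 peaks overlapped a scrambled H3K4me1 peak and 63.7% overlapped a shWdr82 one, a difference of -8.65 points (-9.26 to -8.05). In that pair, 2609 H3K4me3 peaks overlapped H3K4me1 in scrambled cells alone and 969 in shWdr82 cells alone. After LPS, 75.2% overlapped H3K4me1 in scrambled and 67.2% in shWdr82 cells, which differed by -7.99 points (-8.57 to -7.42), with 2385 and 870 in scrambled and shWdr82 cells alone. When at least 50% of the H3K4me3 peak had to be covered, the differences were -1.65 points untreated and -2.97 points after LPS. In the flanks, outside every H3K4me3 peak, 78.4% and 70.1% had H3K4me1 in untreated cells (-8.26 points, -8.83 to -7.68), and 81.0% and 73.3% after LPS (-7.72 points, -8.27 to -7.17). On and beside, the shWdr82 share was lower on each of the 20 chromosomes in both treatments, which are parts of the same libraries and not replicates. On the H3K4me3 peaks the chromosomes ranged from -11.9 to -6.27 points untreated and from -10.8 to -5.02 points after LPS.

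H3K4me1 that was missing from an H3K4me3 peak was in most cases missing from its flanks too. In untreated scrambled cells, 13639 of the 13719 H3K4me3 peaks with H3K4me1 on them also had it in the flanks. After LPS it was 14166 of 14245. Loss on the peak and loss in the flanks were therefore largely counted on the same H3K4me3 peaks and are not separate results. Of the 2609 H3K4me3 peaks without overlap in untreated shWdr82 cells alone, 1938 (74.3%) had no shWdr82 H3K4me1 peak within 2500 bp. At 407 (15.6%) another shWdr82 peak lay within 2500 bp, and at 264 (10.1%) the counterpart of the scrambled peak was still called but had drawn back outside the H3K4me3 peak. After LPS the counts were 1806 (75.7%), 434 (18.2%) and 145 (6.08%) of 2385. The scrambled H3K4me1 peak on these H3K4me3 peaks had a median score of 102 in both treatments, against 293 and 298 where both vectors overlapped.

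These H3K4me3 peaks were not without other marks in shWdr82 cells. Of the 2609, 94.7% (93.8 to 95.6) still overlapped an H3K4me3 peak of untreated shWdr82 cells, against 90.8% of the 11110 with H3K4me1 in both vectors and 17223 of all 18951. H3K27ac, a mark of active promoters and enhancers, was present at 73.9% in empty vector and 73.7% in shWdr82 cells, a difference of -0.192 points (-0.931 to 0.548). Total RNA polymerase II was present at 74.4% and 71.6%. Where both vectors had H3K4me1, the shares in control cells were 81.8% for H3K27ac and 74.4% for total polymerase II. They were 70.9% and 66.9% over all 18951. The 2609 thus had H3K27ac less often than the peaks with H3K4me1 in both vectors. Over all 18951 H3K4me3 peaks, H3K27ac differed by 0.612 points (0.326 to 0.899) untreated and by -1.15 points (-1.47 to -0.823) at 4 h of LPS. Total polymerase II differed by -2.60 points untreated and by 1.22 points at 45 min of LPS. At the same times its serine 2-phosphorylated form differed by -1.69 and 0.612 points. H3K36me3, a mark of transcribed gene bodies, differed by -3.63 points untreated and by -2.07 points at 45 min. The shares these differences start from were unlike, so their sizes in points cannot be ranked. For H3K36me3 they were 19.8% in scrambled and 16.1% in shWdr82 cells untreated and 17.1% and 15.1% after LPS. By distance, H3K4me1 also stood on the other side. Control H3K27ac peaks without a shWdr82 counterpart were rarer on H3K4me3 than far from it (-9.24 points untreated and -14.5 at 4 h of LPS). So were those of total polymerase II (-28.1 untreated and -27.6 at 45 min), its serine 2 form (-30.1 and -20.4) and H3K36me3 (-6.52 and -5.22). Unmatched H3K4me1 peaks were more frequent on H3K4me3 than far from it. Of these antibodies only H3K4me1 was compared within score groups, so the part of peak score in this contrast was not tested. The depth of these libraries is unknown, and its part in these differences was not tested.

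The difference on the H3K4me3 peak varied with the width and score of that peak. At H3K4me3 peaks under 1000 bp the shares with H3K4me1 on the peak were 55.7% and 53.2% in untreated scrambled and shWdr82 cells (-2.44 points, -3.51 to -1.38). From 1000 to under 2000 bp they were 71.3% and 59.2% (-12.1 points, -13.2 to -11.1) and from 2000 to under 3000 bp 87.1% and 75.2% (-12.0 points, -13.2 to -10.7). At 4000 bp and over they were 91.9% and 87.3% (-4.52 points, -7.40 to -1.64). After LPS the difference was -3.39, -11.3, -9.66 and -4.88 points in the same width classes. The greatest difference was at H3K4me3 peaks that were narrow and high-scoring, under 2000 bp with a score of at least 3000. Of 3393 such peaks, 74.2% had H3K4me1 in scrambled and 56.1% in shWdr82 untreated cells, or -18.2 points (-19.8 to -16.6), and 75.8% and 59.2% after LPS, or -16.7 points (-18.2 to -15.1). H3K4me3 peaks scoring 50 to 99 differed by -2.63 points untreated and -3.78 points after LPS.

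At the centre of wide H3K4me3 peaks, most of which scored at least 3000, the difference had the opposite sign. In scrambled cells the centre was largely free of H3K4me1: the middle base lay under an H3K4me1 peak at 19.1% of the 6146 H3K4me3 peaks of at least 2000 bp in untreated cells and at 22.9% after LPS. In shWdr82 cells it did so at 29.3% and 32.9%. The differences were 10.3 points (9.32 to 11.2) untreated and 9.93 points (8.91 to 10.9) after LPS, and the shWdr82 share was higher on all 20 chromosomes in both treatments (7.53 to 15.7 and 5.29 to 13.6 points). When an H3K4me1 peak within 500 bp of the centre base also counted, the differences were 2.34 and 3.29 points. The difference was greater in wider peaks. From 2000 to under 3000 bp they were 17.9% in scrambled and 25.8% in shWdr82 untreated cells and 22.4% and 30.1% after LPS. From 3000 to under 4000 bp they were 19.2% and 33.4%, and 21.6% and 35.3%. At 4000 bp and over they were 28.2% and 47.0%, and 30.6% and 48.6%. Below 1000 bp the shares were slightly lower in shWdr82 cells, 52.7% and 50.6% untreated and 57.5% and 54.2% after LPS. The 5645 wide peaks scoring at least 3000 held 741 of the 792 centres with H3K4me1 in untreated shWdr82 cells alone. They held 118 of the 161 in scrambled cells alone. After LPS the counts were 788 of 838 and 177 of 228. Over all widths, peaks scoring 1000 to under 3000 differed by -3.17 points untreated and -3.47 points after LPS. The higher centre share was thus shown for wide peaks scoring at least 3000, and not for lower-scoring ones.

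**Figure D3:**
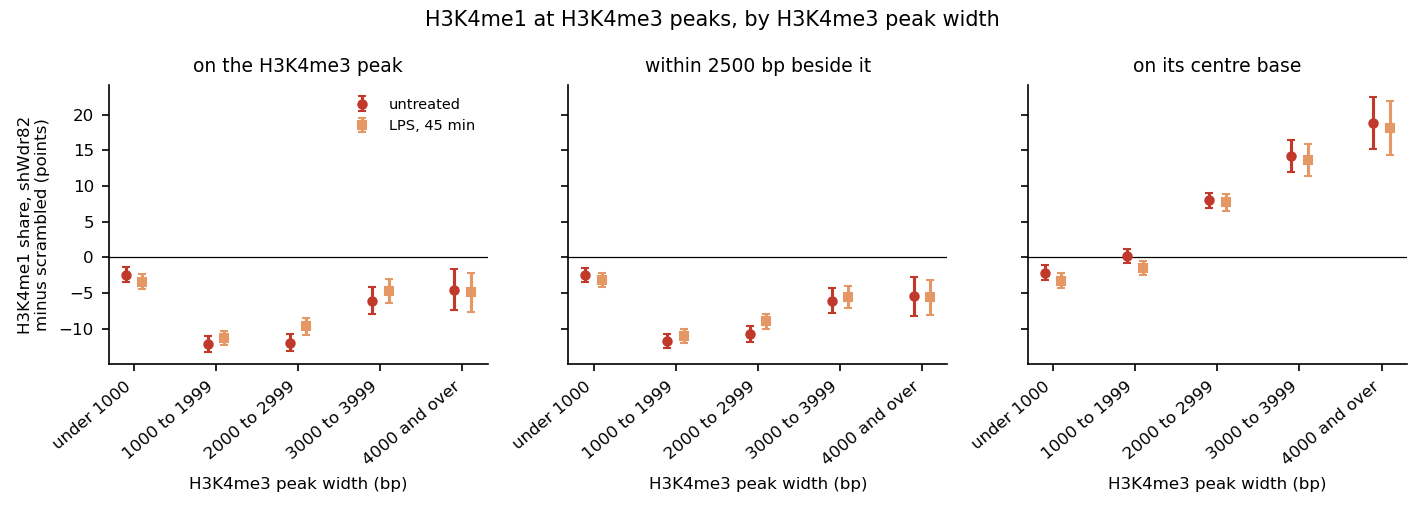
Difference in the share of H3K4me3 peaks with H3K4me1, shWdr82 minus scrambled (vertical axis, percentage points), by width of the H3K4me3 peak (horizontal axis, bp), on the peak, within 2500 bp beside it and on its centre base. Bars are 95% intervals for paired shares, from 1 library per group. On and beside the peak all values are below 0, while on the centre base they reach 18.8 points untreated and 18.1 points after LPS at 4000 bp and over.

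In wide H3K4me3 peaks the H3K4me1 profile of shWdr82 cells was thus lower at the border and beyond and higher at the centre. At H3K4me3 peaks of at least 3000 bp, H3K4me1 covered 45.3% of the bases inside in scrambled and 50.7% in shWdr82 untreated cells. In their flanks it covered 52.3% and 42.1%. Inside the 4307 peaks of 2000 to under 3000 bp the order was the reverse, with 44.7% and 41.8% untreated and 48.3% and 46.3% after LPS, and over all 6146 the inside differed by 0.473 points untreated and 0.993 points after LPS. At 3000 bp and over, in LPS-treated cells, it covered 48.2% and 53.6% of the inside and 53.0% and 43.6% of the flanks. The arrangement with an H3K4me1 peak over both borders and a free centre, held by 31.4% (30.2 to 32.5) of the peaks of at least 2000 bp in untreated scrambled cells, was held by 16.3% (15.4 to 17.2) in shWdr82 cells. After LPS it was held by 31.6% and 17.1%. In untreated cells an H3K4me1 peak over the centre but not over the whole width was seen at 15.4% and 23.7%, cover from end to end at 3.69% and 5.60%, and no H3K4me1 at all at 11.4% and 21.4%. Both outcomes, a covered centre and no H3K4me1, were thus more frequent in shWdr82 cells, as they also were after LPS (18.1% and 25.4% for the centre, 4.88% and 7.44% for end to end, 10.3% and 18.5% for none).

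**Figure D4:**
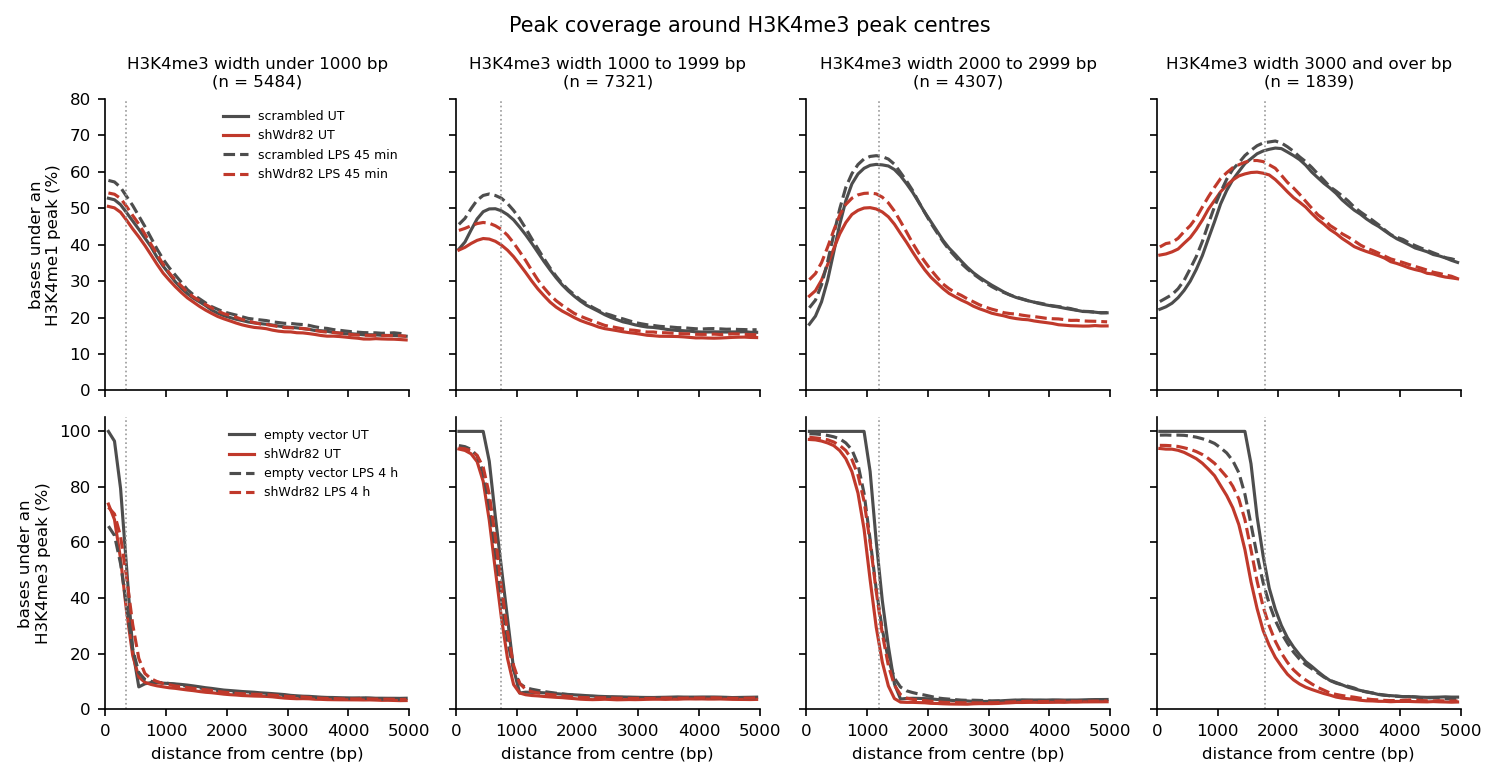
Percent of bases under an H3K4me1 peak (upper row) or an H3K4me3 peak (lower row) by distance from the centre of the H3K4me3 peak (horizontal axis, bp, both sides joined), in 4 width classes. Each line is 1 library, dashed after LPS, and the dotted line marks the median border. In the 2 wider classes the shWdr82 lines for H3K4me1 start above the scrambled lines at the centre and run below them at and beyond the border.

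In percentage points, the difference at the centre was larger where less of the H3K4me3 peak was called in shWdr82 cells. The peaks are those of the untreated empty vector list, so any other list covers less of them. At 4 h of LPS, where neither list defined the peaks, 1000 bp from the centre lay under H3K4me3 at 61.0% in empty vector and 60.0% in shWdr82 cells for widths of 2000 to under 3000 bp, and at 94.1% and 86.1% for 3000 bp and over. The 6146 wide peaks were divided into 4 groups of equal size by the percent of their bases still under an H3K4me3 peak of untreated shWdr82 cells. In the group with a median of 64.5%, H3K4me1 lay on the centre base of 43.4% in scrambled and 59.6% in shWdr82 cells, a difference of 16.2 points (13.8 to 18.6). The differences were 11.9, 8.98 and 3.97 points (2.50 to 5.44) in the groups with medians of 79.3%, 87.2% and 94.6%. After LPS, with H3K4me3 at 4 h, they were 14.0, 12.0, 7.94 and 5.73 points. The shares these differences start from were unlike. Untreated, the scrambled centre share was 43.4%, 13.9%, 7.62% and 11.3% in these groups, and the shWdr82 share was 59.6%, 25.8%, 16.6% and 15.3%. The median widths were 2842, 2616, 2486 and 2497 bp. The order of the groups thus holds in points and was not examined relative to the starting share. The difference on the peak as a whole did not follow that order, at -6.31, -11.3, -12.2 and -10.3 points untreated. Over all H3K4me3 peaks, bases that were under H3K4me3 in untreated empty vector cells alone (6.98 Mb) had H3K4me1 at 69.9% in scrambled and 63.3% in shWdr82 cells. Bases under H3K4me3 in both vectors had 39.8% and 39.1%. Bases under H3K4me3 in untreated shWdr82 cells alone (1.60 Mb) had 46.9% and 44.9%. After LPS, with H3K4me3 at 4 h, the shares in the same order were 72.2% and 64.2%, 44.7% and 44.0%, and 55.1% and 50.6%. In each set of bases less H3K4me1 was thus called in shWdr82 cells. The position of these bases within the H3K4me3 peaks was not taken into account.

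Some centres were covered in shWdr82 cells in both treatments. At 426 of the 6146 wide peaks both shWdr82 lists and neither scrambled list had H3K4me1 on the centre base, against 45 with the reverse. The centre base lay under an H3K4me3 peak of shWdr82 cells at 98.4% of the 426 untreated and 98.6% at 4 h of LPS, close to the 96.0% and 97.0% of all 6146. Their median width was 2857 bp, against 2561 bp at the 3721 peaks whose centre was free in all 4 lists. An H3K36me3 peak of untreated scrambled cells overlapped 56.1% (51.2 to 60.9) of the 426, 33.1% (31.5 to 34.6) of the 3721 and 44.8% (41.4 to 48.2) of the 833 covered in all 4 lists, with 38.0% over all 6146. The 45 centres with the reverse pattern had 48.9% (33.7 to 64.2), an interval that holds the value of the 426. H3K36me3 in scrambled cells after LPS gave 50.2%, 28.8% and 38.9%, with 33.3% over all 6146 and 18 of the 45. Wider peaks have more room to overlap any list, and that part was not tested.

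The 3 widest of the 426, chosen after their values were seen, show this position. Coordinates are those of build mm9. The widest lay on chromosome 9 from 59502506 to 59509756 and was 7251 bp wide. H3K4me1 covered 61.1% of it in scrambled and 80.9% in shWdr82 untreated cells, and 58.8% and 84.2% after LPS. The next lay on chromosome 6 from 122546429 to 122553236, with 50.7% and 81.5% untreated and 54.5% and 84.0% after LPS. The third lay on chromosome 4 from 154591676 to 154598270, with 58.5% and 82.7% untreated and 56.3% and 72.7% after LPS. In each of them the scrambled H3K4me1 peaks ended short of the centre, and in both shWdr82 lists a peak reached across it. Gene names were not assigned, because the gene table at hand is of another build.

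**Figure D5:**
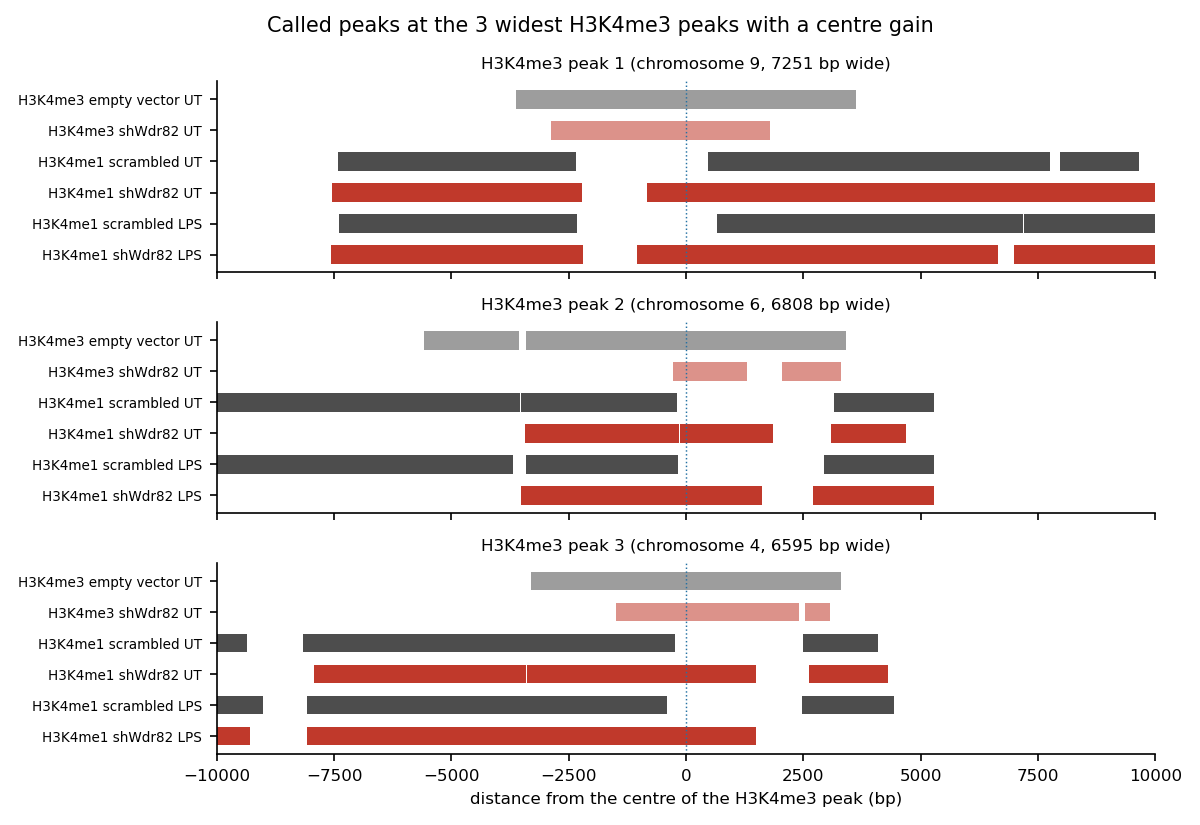
Called peaks at the 3 widest H3K4me3 peaks whose centre base lay under H3K4me1 in both shWdr82 lists and neither scrambled list. The horizontal axis is the distance from the centre of the empty vector H3K4me3 peak in bp, each bar is a called peak, and bars that run to the edge go on beyond it. The scrambled H3K4me1 bars leave the dotted centre line free, and the shWdr82 bars cross it.

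Of the 18951 H3K4me3 peaks, 936 had H3K4me1 in both scrambled lists and neither shWdr82 list. The number with the reverse pattern in both treatments is not given here. Within a treatment, 969 untreated and 870 after LPS had H3K4me1 in shWdr82 cells alone. Of the 936, the 5 with the highest H3K4me3 score were 1296 to 1996 bp wide, and their scrambled H3K4me1 peaks scored 55.9 to 192. On chromosome 7, for the peak from 31992950 to 31994486, the nearest H3K4me1 peak of either shWdr82 list was 11137 bp away. There the scrambled peaks covered 51.7% of it untreated and 51.1% after LPS, and H3K4me3 and H3K27ac were called in all 8 lists of those antibodies. On chromosome 11, for the peak from 80289700 to 80291518, the nearest was 2609 bp away, H3K4me3 was called in all 4 of its lists and H3K27ac in none.

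The 4 H3K4me1 lists merged into 76449 regions, of which 4.63% were held by both scrambled lists alone and 3.29% by both shWdr82 lists alone. On H3K4me3 the shares were 7.18% (6.81 to 7.56) and 1.27% (1.11 to 1.44) of 18778 regions. Beside it they were 8.35% and 2.25% of 3774, and near it 4.38% and 3.28% of 10831. Over 10000 and up to 50000 bp away the order was the reverse, with 3.43% (3.21 to 3.67) and 3.95% (3.70 to 4.20) of 24512. Beyond 50000 bp the shares were 3.04% (2.80 to 3.30) and 4.67% (4.37 to 4.99) of 18554. Regions of 1 vector alone were narrow, with a median of 1571 bp in scrambled and 1336 bp in shWdr82 cells, against 2664 bp for the 40360 regions held by all 4 lists.

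Far from H3K4me3, the regions of both shWdr82 lists alone seldom carried H3K27ac. Of these 1834 regions, 93 overlapped an H3K27ac peak of untreated empty vector cells and 185 one of untreated shWdr82 cells. At 4 h of LPS the counts were 166 in both vectors, so the difference was not present there. Of the 1405 far regions of both scrambled lists alone, 253 and 222 overlapped H3K27ac untreated and 272 and 240 at 4 h of LPS. The 22007 far regions of all 4 lists overlapped it at 10063 and 10430 untreated. Untreated, these counts were 5.07% and 10.1% of the shWdr82 regions and 18.0% and 15.8% of the scrambled regions. For the regions of all 4 lists they were 45.7% and 47.4%, and 36.2% and 35.4% at 4 h of LPS. Most far regions thus had no H3K27ac call, whether of 1 vector alone or of all 4 lists. The median widths were 1315, 1387 and 2539 bp. Wider regions have more room to overlap, and that part was not tested.

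Single regions of this kind were ordered by their score, using whichever of the 2 lists that held them scored lower. Among far regions of both shWdr82 lists, 3 of the first 5 lay within 1000 bp of a scrambled peak (703, 909 and 674 bp). The third in order lay on chromosome 6 from 134313759 to 134318739, 30215 bp from H3K4me3 and 29433 bp from any scrambled H3K4me1 peak. Its scores were 862 untreated and 654 after LPS, with H3K27ac in all 4 lists. The fifth lay on chromosome 18 from 69017292 to 69020395, 25276 bp from any scrambled H3K4me1 peak, with scores of 443 and 419. On H3K4me3, the third region of both scrambled lists lay on chromosome 11 from 83403754 to 83411061, 5232 bp from any shWdr82 H3K4me1 peak, with scores of 1737 and 1668. It overlapped H3K4me3 in both empty vector lists and in neither shWdr82 list, and H3K27ac in all 4. Others of the first 5 lay as little as 36 and 99 bp from a shWdr82 peak.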

How the data were processed

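Immunoprecipitated DNA was sequenced and aligned with Bowtie 0.12.7, and peaks were called with MACS 1.4 on build mm9, per the submitters' processing notes; the other settings are not stated in them. The deposited lists give, per the authors' files, a start, an end and a score for each peak. The score is the authors' value and was used mainly to order or select peaks of the same list, since it stops near a ceiling. Shares of peaks that reached 1000 were also set side by side between lists. In 1 alternative the same score minimum was applied to both vectors. No read counts were used, so the depth of each library is unknown. Here, overlaps and distances were computed with numpy 2.4.6, shares with exact binomial (Clopper-Pearson) intervals, paired differences with Wald intervals and differences between classes with Newcombe intervals, all at 95% (scipy 1.17.1). The functions for overlaps, distances and differences in shares were checked on simulated peak lists. The 95% intervals were not checked in that way. With 1 library per group nothing was tested. The classes, rules and centre measure were chosen with earlier results of these data known. Named regions were to be the 5 highest-ranked of each class and direction (by the lower score of both lists), with the 5 highest-scoring H3K4me3 peaks without overlap in shWdr82; some of each are given. Alternatives changed the score minimum, list size, peak width, overlap, tolerance, H3K4me3 list and distance bounds. Genes and macrophage markers were not analysed here, for want of an mm9 annotation.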

Additional observations from a re-analysis of the deposited data

Results flagged for a closer look

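At H3K4me3 peaks of 1000 to under 2000 bp, the share with H3K4me1 on the centre base differed by 0.150 points (-0.843 to 1.14) in untreated cells, shWdr82 minus scrambled. After LPS the difference was -1.53 points (-2.51 to -0.548). The 2 values differ in sign, but the untreated interval spans both signs, so no direction is given for untreated cells. The difference between treatments was not tested.

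Scrambled H3K4me1 peaks that overlapped 2 or more shWdr82 peaks outnumbered the reverse by 1083 in untreated cells (3012 and 1929). After LPS the difference was -758 (2146 and 2904). Here the sign differed between the treatments, without a test. Among peaks that overlapped 1 to 1, the median log2 ratio of widths, shWdr82 over scrambled, was -0.04 on H3K4me3 and 0 far from it in untreated cells, and 0.00 and 0.04 after LPS.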

How the results depend on the processing

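The 4 measures (H3K4me1 on the H3K4me3 peak, in its flanks, the excess of unmatched scrambled peaks on H3K4me3 over those far from it, and the centre base of wide H3K4me3 peaks, added after seeing the data) kept their sign in both treatments under all 12 alternatives that gave a value. Values below are points, untreated then LPS, for those that moved beyond their counting interval. With a score of at least 100 they were -11.2 and -10.2 on, -11.1 and -10.6 in the flanks, 9.64 and 8.91 for the excess, and 8.18 and 8.12 for the centre. Median scores were 186 and 190 in the scrambled and 153 and 165 in the shWdr82 lists, so this minimum does not treat the lists alike. With 60602 peaks per list, the LPS values were -6.16, -6.22 and 5.55 in that order. With lists narrowed to equal covered length the centre gave 13.7 and 11.7. With an overlap of at least 50% they were -1.65 and -2.97 on, -7.60 and -5.84 in the flanks, and 7.41 and 5.94 for the excess; the cause was not tested. With a peak within 500 bp counted, the flanks gave -7.59 and -7.14, the LPS excess 3.88, and the centre 2.34 and 3.29. With the H3K4me3 peaks of untreated shWdr82 cells they were -7.47 and -6.79 on, -7.46 and -6.99 in the flanks, and 8.20 and 8.49 for the centre. With H3K4me3 peaks found in all 4 lists they were -9.83 and -8.75 on, -9.34 and -8.49 in the flanks, and 6.85 and 6.00 for the excess. With H3K4me3 scores of at least 100 they were -9.51 and -8.59 on, -9.20 and -8.33 in the flanks, and 6.18 for the untreated excess. With flanks of 1000 bp they were -8.96 and -8.57. Alternatives added after seeing the data were the 40000 top peaks per list (-7.41 and -5.51 on, -7.33 and -6.08 in the flanks, 10.0 and 9.06 for the excess, 8.90 and 8.87 for the centre), the H3K4me3 list of LPS-treated empty vector cells (6.32 for the excess and 9.17 for the centre, untreated) and a width of at least 3000 bp (15.6 and 15.0 for the centre).

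The peak lists limit what can be said: an absent call is not an absent mark, depth is unknown, and the shWdr82 lists held fewer high-scoring peaks. No paired analysis was possible because each group was 1 library and the labels give no replicate numbers. Leaving out a replicate was likewise not possible.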
